A study of Mus musculus with 6 samples.

Results

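The genes described here encode the enzymes of the polyol pathway and the hexosamine pathway, the side routes that draw sugar away from glycolysis. Members were chosen by gene name, 4 for the polyol pathway (Akr1b3, Akr1b8, Sord and Khk) and 6 for the hexosamine pathway (Gfpt1, Gfpt2, Gnpnat1, Pgm3, Uap1 and Ogt), and all 10 were found among the 14968 genes of the table. Expression was measured in polyadenylated RNA of regenerating corneal epithelium from male C57BL/6 mice, with 3 control libraries and 3 diabetic ones, the latter made 16 weeks after repeated low-dose streptozotocin (STZ), a toxin of pancreatic beta cells that gives type 1 diabetes. The mice were obtained as young adults, the control mice were of matched age, and no altered allele is named for either group. The diabetic mice had been selected for high blood glucose, and an injection of the control mice is not given in the sources used here. In both groups part of the corneal epithelium had been scraped off and the healing tissue, limbus included, was collected on the following day. Each library pooled the epithelium of several mice, so the replicate error is a spread between pools of wounded corneas. Values are FPKM, fragments scaled to transcript length and to the number of mapped fragments, which allows levels to be compared between genes.

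In the polyol pathway, aldose reductase turns glucose into sorbitol at the cost of NADPH, sorbitol dehydrogenase turns sorbitol into fructose, and ketohexokinase phosphorylates that fructose. The route is known from diabetic lens, nerve and retina, where high glucose drives it and sorbitol can accumulate. In the hexosamine pathway, fructose 6-phosphate and glutamine are joined by GFAT and carried through acetylation, isomerisation and uridylation to UDP-GlcNAc, the sugar donor for N-glycans, hyaluronan and the O-GlcNAc mark that OGT places on nuclear and cytosolic proteins.

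The FPKM summed to 308757 (diabetic replicate 3) to 331926 (control replicate 3) per library, which says nothing of depth, and the number of reads behind each value is unknown. Over the 12149 genes tested, the median deviation from the control mean was -0.13 on the log2(FPKM + 1) scale in diabetic replicate 3, against -0.02 to 0.04 in the other 5 libraries. The 6 genes listed for corneal epithelium (Krt12, Krt5, Krt14, Pax6, Aldh3a1 and Tkt) summed to 13670 to 14130 FPKM in control and 13070 to 15100 FPKM in diabetic libraries. Most of that sum was Krt14, Krt12 and Krt5, whereas Pax6 was at 9.89 to 15.3 FPKM. Within that sum, Krt12 of the differentiated corneal epithelium was higher (log2 fold change 0.52, limma unadjusted p = 0.0116, adjusted p = 0.306) and Krt14 of basal cells lower (-0.26, unadjusted p = 0.00598, adjusted p = 0.264), each without overlap of the groups. Of the 6 genes 1 was higher and 5 were lower. Krt5 of basal cells (-0.05), Aldh3a1 (-0.07), Pax6 (-0.03) and Tkt (-0.02) overlapped between the groups. Genes of other cell types differed as well. Of 6 genes listed for conjunctiva and goblet cells, Muc5ac and Muc16 had no value. The other 4 summed to 1852 to 2171 FPKM in control and 1946 to 2433 FPKM in diabetic libraries (4 of 4 higher). Most of that sum was Krt13, which overlapped between the groups (log2 fold change 0.06), whereas Krt4 (0.82), Krt19 (0.36) and Muc4 (0.38) did not overlap. All 6 genes of stromal keratocytes were lower in diabetic libraries, with sums of 380 to 410 FPKM in control and 242 to 365 FPKM in diabetic tissue. Lens genes summed to 10.6 to 18.5 FPKM in control and 15.1 to 243 FPKM in diabetic libraries (6 of 7 higher), neutrophil genes to 344 to 662 and 624 to 973 FPKM (6 of 6 higher), and red blood cell genes to 40.9 to 107 and 9.90 to 22.2 FPKM (4 of 5 lower). Most of the neutrophil sum was S100a8 and S100a9, and each neutrophil gene overlapped between the groups. Csf3r, Cxcr2, Il1r2 and Mmp8 lay above the control range in diabetic replicate 1 only. Cxcr2, for instance, was at 2.79, 0.614 and 0.504 FPKM in diabetic replicates 1, 2 and 3, beside at most 1.11 FPKM in control. Macrophage genes summed to 70.9 to 84.6 FPKM in control and 73.1 to 99.5 FPKM in diabetic libraries (3 of 6 higher, 3 lower). All measured genes of blood vessels (4) and melanocytes (3) stayed under 1 FPKM in every library. The part of these cells, and of the differences of Krt12 and Krt14, in the values below was not tested. In bulk tissue fewer cells of a type and less RNA per cell cannot be told apart.

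Polyol transcripts were most abundant for Akr1b8 and for Akr1b3, the aldose reductase gene, and least abundant for Khk. Akr1b8 ranked 335th and Akr1b3 970th of 14968 genes by mean FPKM, Sord ranked 2297th, and Khk stood at the 51.7th percentile. All 6 hexosamine genes lay below Sord, and 4 of them above Khk, with Uap1 at the 83.6th and Gfpt1 at the 78.8th percentile, Ogt at the 65.8th, Gnpnat1 at the 59.7th, Pgm3 at the 47.8th and Gfpt2 at the 17.8th. The plot of all members by library shows these levels together with their spread.

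**Figure D1:**
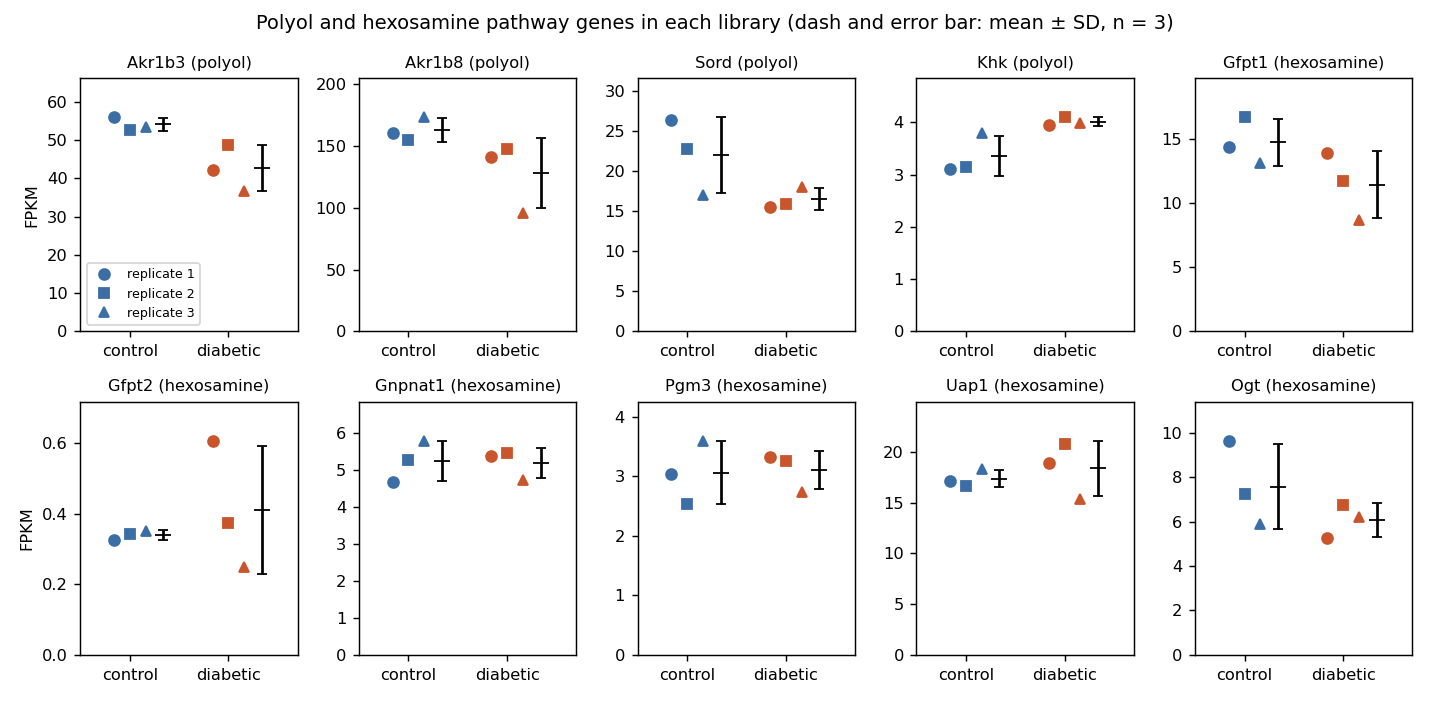
FPKM of each polyol and hexosamine gene in the 3 control (blue) and 3 diabetic (orange) libraries; marker shapes give the replicate number and the black dash and bar the mean ± SD (n = 3). Akr1b3 and Akr1b8 were lower and Khk higher in all diabetic libraries than in any control library, whereas the groups overlapped for the other 7 genes.

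The comparison of diabetic with control epithelium asked whether the genes of these routes differ when the cornea heals under high glucose. No member passed an adjusted p of 0.05 in limma (Benjamini-Hochberg over all 12149 genes tested), where 0.0658% of all genes did. At an unadjusted p under 0.05, 2 of the 9 members tested were lower, Akr1b3 and Sord, beside 6.91% of all genes, and 0 were higher, beside 4.61%. The groups did not overlap, with lower diabetic values, for 2 of the 10 members (Akr1b3 and Akr1b8), beside 10.9% of all genes, and with higher diabetic values for 1 (Khk), beside 6.68%. Of the polyol genes 3 of 4 had lower diabetic means, with a median log2 fold change of -0.36 over the 4, whereas the hexosamine genes were split 3 to 3, with a median of 0.005 over the 6. The median over all genes tested was -0.04. With so few genes these counts describe the lists and test nothing about them.

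Akr1b3 (ENSMUSG00000001642.18, chromosome 6, 34302434 to 34317478, in GRCm38 coordinates like the other genes) is the mouse aldose reductase, the entry enzyme of the polyol pathway. Its level was 56.1, 52.8 and 53.5 FPKM in control replicates 1, 2 and 3 and 42.3, 48.9 and 36.8 FPKM in diabetic replicates 1, 2 and 3. Every diabetic library lay below every control library, and the control pools were close to each other. The means were 54.1 ± 1.74 and 42.7 ± 6.04 FPKM (SD, n = 3), a ratio of 0.788, and the log2 fold change on FPKM + 1 was -0.34 (SE 0.12, 95% interval -0.62 to -0.07; limma unadjusted p = 0.0202, adjusted p = 0.344). The difference therefore exceeded the spread between pools by the unadjusted test but did not pass the adjustment. Leaving out each library in turn gave log2 fold changes between -0.45 and -0.25, and the unadjusted p was 0.0660 without control replicate 1.

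Akr1b8 (ENSMUSG00000029762.6, chromosome 6, 34354119 to 34368463), a reductase of the same family that was first known as a gene induced by fibroblast growth factor and that acts on reactive aldehydes, was the most abundant member. It was measured at 161, 155 and 174 FPKM in control and at 141, 148 and 95.7 FPKM in diabetic replicates 1, 2 and 3. The groups did not overlap, but diabetic replicate 3 lay far below the other diabetic pools. The log2 fold change was -0.37 (SE 0.16, 95% interval -0.75 to 0.01; limma unadjusted p = 0.0555, adjusted p = 0.444), and it was -0.17 without diabetic replicate 3. That library also had the lowest summed level of stromal genes (242 FPKM) and the lowest median over all genes, and their part in its low value was not tested.

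Akr1b3 and Akr1b8 lie beside 2 further genes of the family on chromosome 6, Akr1b10 (34384218 to 34396950) and Akr1b7 (34412334 to 34423142), which reduce aldehydes too. All 4 have coding sequences of the same length, 948 bases without the stop codon. The first 60 coding bases of each, from GENCODE M21 transcripts, are shown because they make visible how far reads of these neighbours can be told apart; capitals mark bases that differ from Akr1b3.
Akr1b3: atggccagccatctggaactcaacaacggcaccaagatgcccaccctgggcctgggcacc
Akr1b8: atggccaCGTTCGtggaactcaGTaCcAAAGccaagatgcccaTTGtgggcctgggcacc
Akr1b10: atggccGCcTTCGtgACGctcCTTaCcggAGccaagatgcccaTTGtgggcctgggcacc
Akr1b7: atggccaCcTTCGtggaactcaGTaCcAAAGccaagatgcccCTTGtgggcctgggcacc
In this stretch Akr1b8 and Akr1b7 differed from Akr1b3 at 16 positions each and Akr1b10 at 18. Over the whole coding sequence Akr1b3 was 71.9% identical to Akr1b8, and its longest identical run with any of the 3 was 24 bases. The other 3 were closer to each other, with 84.7% identity between Akr1b8 and Akr1b10, 84.8% between Akr1b8 and Akr1b7 and 89.2% between Akr1b10 and Akr1b7. Akr1b8 shared an identical run of 80 bases with Akr1b10, so part of the reads of these genes may have been assigned to a neighbour and their single values are less certain than that of Akr1b3.

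All 4 genes of the cluster had lower means in diabetic epithelium. Akr1b10 was at 17.9, 16.8 and 14.8 FPKM in control and 12.1, 15.3 and 12.3 FPKM in diabetic replicates 1, 2 and 3 (log2 fold change -0.30, limma unadjusted p = 0.0437, adjusted p = 0.422), and its unadjusted p stayed under 0.05 in 2 of the 6 fits without a library. Akr1b7 was at 71.4, 87.7 and 47.4 FPKM in control and 46.1, 58.8 and 40.2 FPKM in diabetic libraries (log2 fold change -0.47, adjusted p = 0.488), with -0.28 without control replicate 2 and -0.72 without control replicate 3. Both overlapped between the groups. Summed over the 4 genes, the level was 306, 312 and 289 FPKM in control and 241, 271 and 185 FPKM in diabetic libraries, or 302.5 ± 11.8 and 232 ± 43.5 FPKM (SD, n = 3). The shares of the sum differed less than the sum itself, with 54.0% ± 5.36 and 54.9% ± 3.31 for Akr1b8 and 17.9% ± 0.879 and 18.5% ± 1.24 for Akr1b3 (SD, n = 3). The stacked plot of the cluster shows lower bars of similar composition in the diabetic libraries. Within a library, Akr1b8 less Akr1b3 on the log2(FPKM + 1) scale was 1.57 ± 0.0942 in control and 1.55 ± 0.179 in diabetic epithelium (SD, n = 3), a difference of -0.02 (exact two-sided permutation p = 1.0). With 3 against 3 libraries that test cannot give a p below 0.1.

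**Figure D2:**
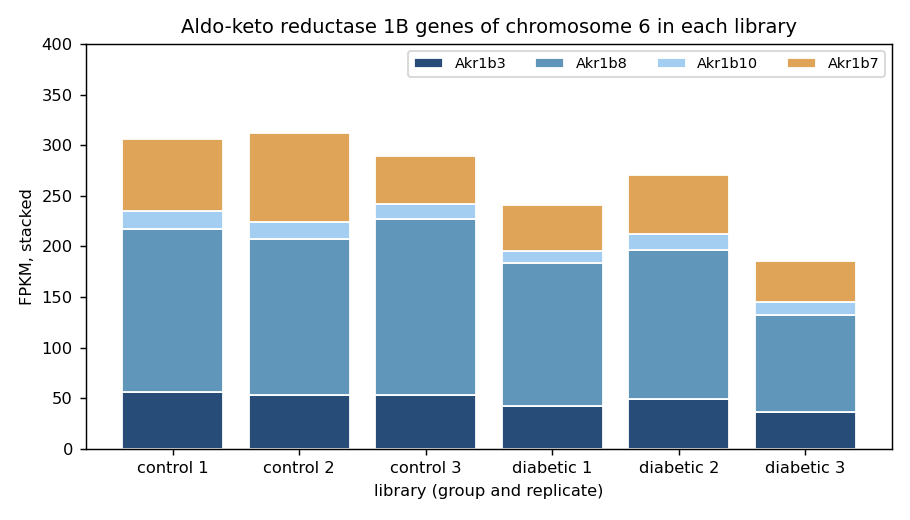
FPKM of the 4 neighbouring aldo-keto reductase genes stacked for each library, with groups and replicates on the x axis. The bars reach 289 to 312 FPKM in the control libraries and 185 to 271 FPKM in the diabetic ones, and Akr1b8 makes up the largest part in each.

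Sord (ENSMUSG00000027227.7, chromosome 2, 122234749 to 122265340), the sorbitol dehydrogenase that completes the conversion to fructose, was at 26.3, 22.7 and 16.9 FPKM in control and 15.5, 15.8 and 18.0 FPKM in diabetic replicates 1, 2 and 3. The control pools spread widely, and control replicate 3 lay among the diabetic values. The log2 fold change was -0.38 (SE 0.16, 95% interval -0.76 to -0.005; limma unadjusted p = 0.0478, adjusted p = 0.428). It was -0.25 without control replicate 1, the highest library, and -0.55 without control replicate 3. The unadjusted p stayed under 0.05 in 2 of the 6 fits without a library and in 6 of 11 other settings. The balance between transcripts of the sorbitol-making and the sorbitol-using enzyme did not differ beyond its spread. Sord less Akr1b3 within a library was -1.28 ± 0.284 in control and -1.32 ± 0.294 in diabetic epithelium (SD, n = 3, exact permutation p = 1.0). In FPKM, Akr1b3 stood at 2.13, 2.32 and 3.16 times the level of Sord in control replicates 1, 2 and 3 and at 2.74, 3.08 and 2.05 times in diabetic replicates 1, 2 and 3.

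Khk (ENSMUSG00000029162.15, chromosome 5, 30921431 to 30931248), ketohexokinase, was the polyol gene with higher values under diabetes. It was at 3.11, 3.16 and 3.79 FPKM in control and 3.95, 4.11 and 3.99 FPKM in diabetic replicates 1, 2 and 3, so the groups did not overlap and the diabetic pools were nearly equal. The means of 3.35 ± 0.382 and 4.01 ± 0.0821 FPKM (SD, n = 3) gave a log2 fold change of 0.21 (SE 0.10, 95% interval -0.03 to 0.45; limma unadjusted p = 0.0769, adjusted p = 0.488). The unadjusted p was under 0.05 in 3 of 11 other settings and in 1 of 6 fits without a library, with log2 fold changes of 0.17 to 0.28 over all of them. The ratio of Sord to Khk in FPKM was 8.46, 7.21 and 4.47 in control and 3.92, 3.86 and 4.51 in diabetic replicates 1, 2 and 3, where control replicate 3 lay within the diabetic range.

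Of the hexosamine genes, Gfpt1 and Ogt had the largest differences, and their order depended on the libraries included. Gfpt1 (ENSMUSG00000029992.14, chromosome 6, 87042846 to 87092197) encodes glutamine-fructose-6-phosphate transaminase (GFAT), which commits fructose 6-phosphate to the pathway and limits its rate. It was at 14.4, 16.8 and 13.2 FPKM in control and 13.9, 11.8 and 8.72 FPKM in diabetic replicates 1, 2 and 3. Diabetic replicate 1 lay inside the control range and diabetic replicate 3 well below it. The log2 fold change was -0.35 (SE 0.17, 95% interval -0.75 to 0.04; limma unadjusted p = 0.0742, adjusted p = 0.486), and leaving out diabetic replicate 3 gave -0.19 whereas leaving out diabetic replicate 1 gave -0.50.

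Gfpt2 (ENSMUSG00000020363.6, chromosome 11, 49794178 to 49838613), the second GFAT, was barely expressed, at 0.326, 0.343 and 0.352 FPKM in control and 0.608, 0.374 and 0.250 FPKM in diabetic replicates 1, 2 and 3. Its means stayed below the filter of 0.5 FPKM in both groups, so it was not among the genes tested; without the filter its log2 fold change was 0.07 (limma unadjusted p = 0.507, adjusted p = 0.828). Gfpt2 made up 2.003% to 2.61% of the summed GFAT level in control and 2.79% to 4.18% in diabetic libraries. The groups did not overlap in this share, and Gfpt2 less Gfpt1 within a library was -3.55 ± 0.168 in control and -3.13 ± 0.148 in diabetic epithelium (SD, n = 3), a difference of 0.42 (exact two-sided permutation p = 0.1, the smallest this design allows; adjusted over the 4 pairs 0.4). This difference mostly restates Gfpt1, whose log2 fold change was -0.35, against 0.07 for Gfpt2. In diabetic replicate 3 Gfpt2 was at its lowest, 0.250 FPKM, beside 8.72 FPKM for Gfpt1. The share rests on a gene under 1 FPKM in every library. The coding sequences of the pair are 71.9% identical with no identical run over 23 bases.

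Transcripts of the middle enzymes of the pathway were close to equal in the groups. Gnpnat1 (chromosome 14, 45376334 to 45404913) encodes the enzyme that acetylates glucosamine 6-phosphate and was at 4.70, 5.28 and 5.79 FPKM in control and 5.402, 5.48 and 4.74 FPKM in diabetic libraries. Pgm3 (chromosome 9, 86554377 to 86571842), the mutase that moves the phosphate, was at 3.04, 2.54 and 3.60 FPKM in control and 3.31, 3.25 and 2.73 FPKM in diabetic libraries. Uap1 (chromosome 1, 170141938 to 170174957), the pyrophosphorylase that makes UDP-GlcNAc, was at 17.1, 16.6 and 18.3 FPKM in control and 18.9, 20.8 and 15.4 FPKM in diabetic libraries. The groups overlapped for each, and the 95% intervals of the log2 fold changes ran from -0.26 to 0.25 for Gnpnat1, from -0.28 to 0.31 for Pgm3 and from -0.22 to 0.36 for Uap1. A missed threshold does not show that they were the same, and shifts within these intervals cannot be told from none here. The direction of Gnpnat1 (-0.0095) turned under TPM, quantile and median-of-ratios scaling, where it was 0.026, 0.034 and 0.037. Transcripts of the last enzyme before UDP-GlcNAc were more abundant than those of the one before it. Uap1 stood at 5.10 to 6.56 times the FPKM of Pgm3 in control and 5.64 to 6.40 times in diabetic libraries.

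Ogt (ENSMUSG00000034160.13, chromosome X, 101640060 to 101684351), the transferase that attaches O-GlcNAc to serine and threonine, was at 9.64, 7.22 and 5.87 FPKM in control and 5.25, 6.77 and 6.21 FPKM in diabetic replicates 1, 2 and 3. The log2 fold change was -0.26 (SE 0.17, 95% interval -0.66 to 0.14; limma adjusted p = 0.597), but leaving out control replicate 1 gave -0.093, leaving out diabetic replicate 1 gave -0.17 and leaving out control replicate 3 gave -0.41. The spread between control pools was wider than the difference of the means, 7.58 ± 1.91 against 6.08 ± 0.770 FPKM (SD, n = 3). Its counterpart Mgea5, which encodes the O-GlcNAcase that removes the mark, was at 29.9, 26.3 and 25.2 FPKM in control and 24.5, 27.6 and 16.7 FPKM in diabetic libraries (log2 fold change -0.26, adjusted p = 0.613), with -0.057 without diabetic replicate 3 and -0.40 without diabetic replicate 2. Ogt less Mgea5 within a library was -1.73 ± 0.197 in control and -1.74 ± 0.386 in diabetic epithelium (SD, n = 3; exact permutation p = 1.0), a difference of -0.001 that was far smaller than its spread.

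Seen library by library, the medians of the polyol genes did not overlap between the groups and those of the hexosamine genes did. The median deviation of the 4 polyol genes from the control mean was -0.28, -0.14 and -0.40 on the log2(FPKM + 1) scale in diabetic replicates 1, 2 and 3, and -0.05 to 0.04 in the control libraries. For the 6 hexosamine genes it was 0.07, 0.05 and -0.14 in diabetic replicates 1, 2 and 3. In diabetic replicate 3 all 6 hexosamine genes lay below the control mean, and the median over all genes tested was also lowest there. Without diabetic replicate 3 the median log2 fold change of the polyol genes was -0.21 instead of -0.36.

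**Figure D3:**
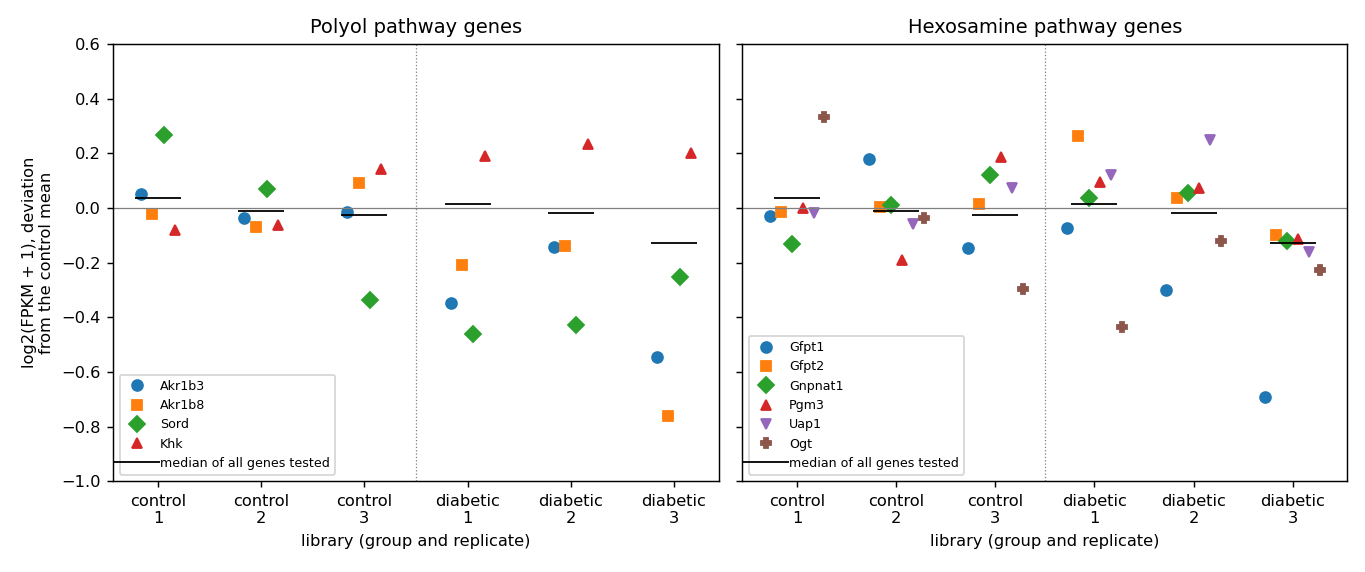
Deviation of each polyol gene (left) and hexosamine gene (right) from its control mean on the log2(FPKM + 1) scale, by library; black dashes give the median of all 12149 genes tested. Akr1b3, Akr1b8 and Sord lie below 0 and Khk above 0 in all 3 diabetic libraries, and diabetic replicate 3 is the lowest library for Akr1b3, Akr1b8, Gfpt1, Gfpt2 and Uap1.

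Akr1b8 and Sord had lower diabetic means and Khk a higher one. The 250 bases before the RefSeq start of these polyol genes and of Gfpt1, the hexosamine entry gene, are printed on GRCm38.p6. They lie at chr6:34353896-34354145, chr2:122234589-122234838, chr5:30921309-30921558 and chr6:87042596-87042845, all on the plus strand. Capitals mark matches on either strand to the GC box (GGGCGG) and to ACGTG, the core of the hypoxia response element; CACGTG in Khk holds ACGTG on both strands, and GC boxes can overlap.
Akr1b8: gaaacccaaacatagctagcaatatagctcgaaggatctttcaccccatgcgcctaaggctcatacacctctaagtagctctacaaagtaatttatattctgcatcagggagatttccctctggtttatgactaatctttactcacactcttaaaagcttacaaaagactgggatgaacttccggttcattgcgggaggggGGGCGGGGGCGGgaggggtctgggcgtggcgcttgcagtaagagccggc
Sord: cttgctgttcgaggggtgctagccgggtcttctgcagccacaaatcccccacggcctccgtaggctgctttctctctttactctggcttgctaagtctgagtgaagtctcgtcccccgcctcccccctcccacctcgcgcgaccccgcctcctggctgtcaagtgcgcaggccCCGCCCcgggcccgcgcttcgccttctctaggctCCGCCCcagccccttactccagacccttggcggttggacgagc
Khk: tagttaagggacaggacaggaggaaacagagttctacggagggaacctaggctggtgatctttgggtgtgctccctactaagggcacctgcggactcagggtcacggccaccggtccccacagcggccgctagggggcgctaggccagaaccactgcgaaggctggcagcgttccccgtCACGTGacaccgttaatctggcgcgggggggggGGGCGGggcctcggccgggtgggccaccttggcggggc
Gfpt1: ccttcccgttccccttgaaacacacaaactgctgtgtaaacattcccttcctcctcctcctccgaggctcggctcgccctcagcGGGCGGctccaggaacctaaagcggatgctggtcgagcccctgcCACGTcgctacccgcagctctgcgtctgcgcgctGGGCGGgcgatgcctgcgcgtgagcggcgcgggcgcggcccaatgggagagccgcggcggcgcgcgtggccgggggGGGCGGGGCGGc
Promoter sequences were matched for 8 of the 10 members, not for Akr1b3 and Gnpnat1. A GC box was found in 8 of 8, beside 32.7% of all 32851 promoters of the same length. It stood 49 and 43 bases before the RefSeq start of Akr1b8 and 77 and 43 bases before that of Sord. The RefSeq starts of Akr1b8, Sord and Khk lie after the gene starts given above (34354119, 122234749 and 30921431). The end of each of these windows therefore falls inside the gene span given above. Both GC boxes of Sord and the CACGTG of Khk lie in that part. The windows of Sord, Khk and Gfpt1 held 66.8%, 67.2% and 72.0% G and C, and that of Akr1b8 49.6%, beside a median of 52.4% over all promoters. The part of this base composition in the GC box matches was not tested. ACGTG was found in 3 of 8 (Khk, Gfpt1 and Gfpt2), beside 16.6% of all promoters. The core of the tonicity element bound by NFAT5 (TGGAAA) and the antioxidant response element (TGACNNNGC) were in 0 of 8, beside 18.6% and 10.2% of all promoters. NFAT5 is known to induce aldose reductase under osmotic stress, but Akr1b3 was not searched and each window held only 250 bases. The search therefore cannot bear on that relation. These matches describe letters in a window and say nothing of binding.

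Genes that surround the 2 pathways were taken from 5 lists of 48 genes, of which 45 were in the table and 42 were tested. None passed the adjusted threshold in limma. At an unadjusted p under 0.05, 3 were higher, beside 4.61% of all genes, and 4 lower, beside 6.91%. The groups did not overlap, with higher diabetic values, for 4 of the 45, beside 6.68% of all genes. With lower diabetic values they did not overlap for 4, beside 10.9%. The counts of the single lists below rest on few genes and test nothing about the lists. The plot of fold changes sets them beside the members.

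**Figure D4:**
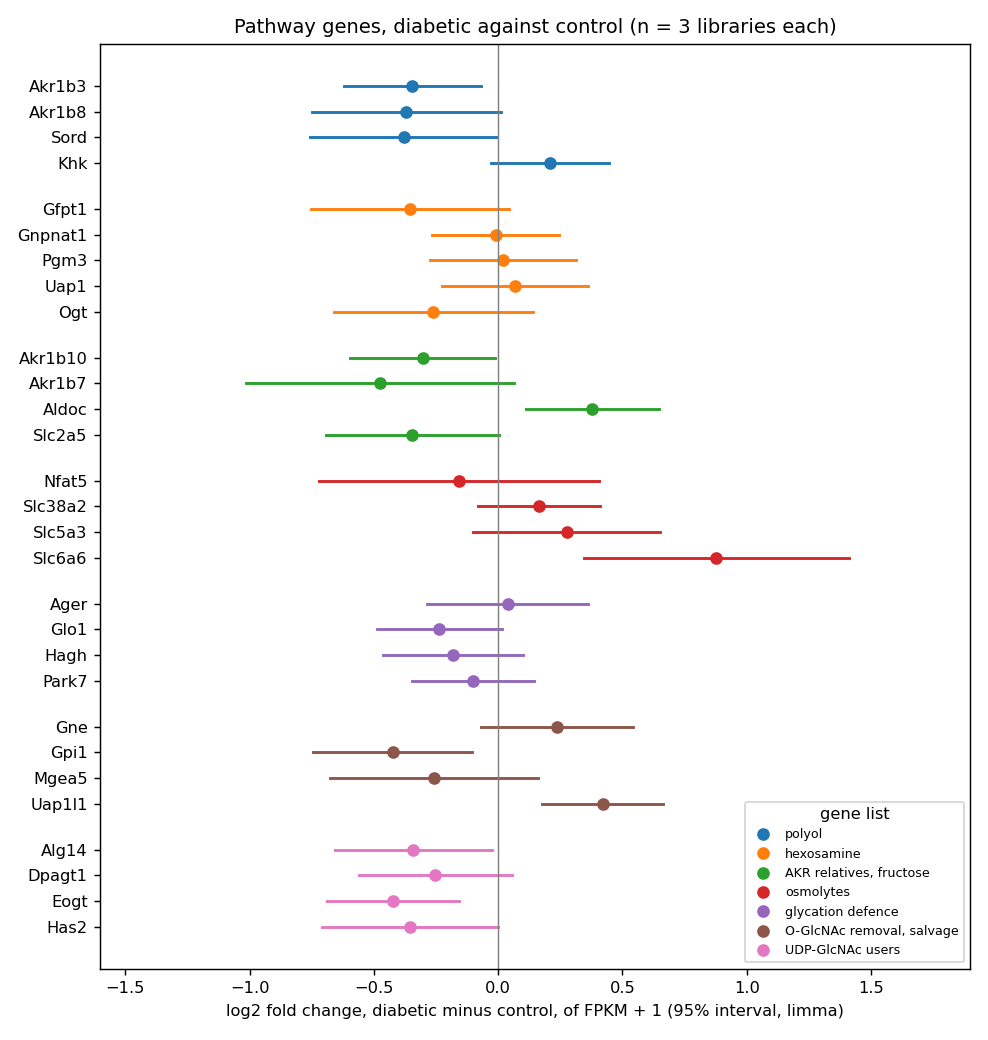
Log2 fold change of FPKM + 1 between diabetic and control libraries (points) with its 95% interval from limma (lines), for the 9 members tested and the named genes of the 5 surrounding lists. The named genes are up to 4 of each list with the smallest p in this same comparison, a choice that favours intervals clear of 0. The intervals of Slc6a6, Uap1l1 and Aldoc lie above 0 and those of Akr1b3, Sord, Akr1b10, Gpi1, Eogt and Alg14 below 0, before any adjustment.

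The osmolyte genes work with the polyol pathway because sorbitol, taurine and inositol all balance osmotic pressure. At an unadjusted p under 0.05, 0 of the 4 tested were lower, beside 6.91% of all genes, and 1 was higher, beside 4.61%. This was Slc6a6 (chromosome 6, 91684053 to 91759066), the taurine transporter, at 23.9, 19.7 and 17.1 FPKM in control and 27.6, 36.6 and 52.6 FPKM in diabetic replicates 1, 2 and 3. The groups did not overlap, and the log2 fold change of 0.88 (SE 0.23, 95% interval 0.35 to 1.41; limma unadjusted p = 0.00544, adjusted p = 0.254) was the largest among the named genes. It was 0.64 without diabetic replicate 3, the highest library. Slc5a3, the inositol transporter, was at 1.69 ± 0.251 and 2.29 ± 0.677 FPKM (SD, n = 3), with a log2 fold change of 0.28 (limma adjusted p = 0.558), but 0.13 without diabetic replicate 3 and 0.42 without diabetic replicate 1, and it shares its strand and locus with Mrps6. The amino acid transporter Slc38a2 had a log2 fold change of 0.16 (adjusted p = 0.587), with 0.11 without diabetic replicate 2 and 0.26 without diabetic replicate 1. The regulator Nfat5 was at 3.88, 1.89 and 2.49 FPKM in control and 1.44, 2.64 and 3.01 FPKM in diabetic libraries, and its direction turned when single libraries were left out.

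Of the relatives of aldose reductase and the genes of fructose handling, 7 of 9 were tested. At an unadjusted p under 0.05, 1 was higher, beside 4.61% of all genes, and 1, Akr1b10, lower, beside 6.91%. Aldoc (chromosome 11, 78322968 to 78327781), an aldolase that can also split the fructose 1-phosphate made by ketohexokinase, was at 11.03, 11.3 and 9.33 FPKM in control and 13.0, 15.4 and 13.6 FPKM in diabetic libraries. The groups did not overlap (log2 fold change 0.38, limma unadjusted p = 0.0119, adjusted p = 0.306). Slc2a5, the fructose transporter, was scarce in both groups, with 0.667, 0.712 and 0.402 FPKM in control and 0.267, 0.466 and 0.0513 FPKM in diabetic libraries (log2 fold change -0.34, adjusted p = 0.437; -0.22 without diabetic replicate 3). At a pseudocount of 0.1 its log2 fold change was -1.10, since values this low depend on what is added before the logarithm.

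Around the hexosamine pathway, 14 genes of O-GlcNAc removal, salvage of amino sugars and the sialic acid branch were tested. Of these, 1 was higher at an unadjusted p under 0.05, beside 4.61% of all genes, and 1 lower, beside 6.91%. Uap1l1 (chromosome 2, 25359889 to 25365682), a paralog of Uap1, was at 2.86, 3.06 and 2.94 FPKM in control and 3.75, 4.51 and 4.66 FPKM in diabetic libraries, and the groups did not overlap (log2 fold change 0.42, SE 0.11, limma unadjusted p = 0.00443, adjusted p = 0.236). Gpi1 (chromosome 7, 34201330 to 34230336), the isomerase that supplies the fructose 6-phosphate used by GFAT, was at 44.2, 48.5 and 35.6 FPKM in control and 34.8, 31.0 and 28.5 FPKM in diabetic libraries. These values did not overlap either (log2 fold change -0.42, unadjusted p = 0.0159, adjusted p = 0.324), and the unadjusted p stayed under 0.05 in 4 of the 6 fits without a library. Gne, which opens the sialic acid branch, had a log2 fold change of 0.24 (adjusted p = 0.534), or 0.15 without control replicate 3.

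Of 12 genes that use or carry UDP-GlcNAc, 2 were lower at an unadjusted p under 0.05, beside 6.91% of all genes, and 0 higher, beside 4.61%. Eogt (chromosome 6, 97110024 to 97149182), the transferase that places O-GlcNAc on secreted proteins and on receptors such as Notch, was at 9.79, 9.41 and 9.37 FPKM in control and 7.32, 7.48 and 5.84 FPKM in diabetic libraries. The control pools were close together and the groups did not overlap (log2 fold change -0.42, SE 0.11, limma unadjusted p = 0.00638, adjusted p = 0.266). Alg14, which helps to build the dolichol-linked precursor of N-glycans, had a log2 fold change of -0.34 (unadjusted p = 0.0376, adjusted p = 0.401) and Dpagt1, which starts that precursor, one of -0.25 (adjusted p = 0.515). Alg14 was at -0.21 (unadjusted p = 0.0799) without diabetic replicate 3 and passed in 2 of the 6 fits without a library, and Dpagt1 was at -0.13 without control replicate 3. The hyaluronan synthase gene Has2, under 1 FPKM in every library, was at 0.914 ± 0.0727 and 0.518 ± 0.319 FPKM (SD, n = 3). Its log2 fold change was -0.35 (limma adjusted p = 0.436), or -0.83 at a pseudocount of 0.1, and it was -0.23 without diabetic replicate 2, its lowest library.

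Of the genes that defend against glycation, the reaction of sugars and their breakdown products with proteins, 5 of 6 were tested. At an unadjusted p under 0.05, 0 were higher, beside 4.61% of all genes, and 0 lower, beside 6.91%. Glo1, the glyoxalase that removes methylglyoxal, was at 81.6, 70.9 and 81.4 FPKM in control and 70.9, 68.2 and 59.2 FPKM in diabetic libraries (log2 fold change -0.24, limma unadjusted p = 0.0614, adjusted p = 0.459). Hagh, which completes the same detoxification, had a log2 fold change of -0.18 (adjusted p = 0.597; -0.093 without control replicate 3) and Park7 one of -0.10 (adjusted p = 0.752; -0.013 without diabetic replicate 3). Ager, the receptor for advanced glycation end products, was at 2.42 ± 0.427 and 2.51 ± 0.465 FPKM (SD, n = 3), a difference within the spread of either group.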

How the data were processed

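Polyadenylated RNA of 6 pooled samples, 3 control and 3 diabetic, was sequenced from stranded libraries. The authors trimmed reads with cutadapt, aligned them to GRCm38 with HISAT2 and deposited FPKM per gene from StringTie, as named in the submitters' processing notes; tool versions and read depth are not given in the sources used here. Whole reads could not be recovered, since at best 33.7% to 44.3% of 80 to 91 low values per library were within 0.1 of a whole number, so depth is unknown, intervals cover the spread between libraries only, and no count test was made. The study's methods mention paired samples without saying which, and the labels name no pairing.

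Genes with a mean of at least 0.5 FPKM in at least 1 group (12149 of 14968) were fitted as log2(FPKM + 1) with limma 3.58.1 (R 4.3.3, group term, intensity trend, two-sided) and p-values were adjusted by Benjamini-Hochberg over all of them. Fold changes on this scale understate the change of low genes. On simulated data of this comparison (12149 genes, 200 changed) 29.9% of genes changed 1.5-fold were called, and 80.6% at a log2 change of 1, so small differences could be missed. Differences within a library were compared by exact permutation over 4 pairs.

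The members and lists were chosen with earlier results of these data known. Named were all 10 members and up to 4 genes with the smallest p of each of 5 further lists. Alternatives were other pseudocounts, filters, scalings and variance settings, a replicate block, and leaving out each library. Coding sequences came from GENCODE M21 and promoters from RefSeq, both on GRCm38.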

Additional observations from a re-analysis of the deposited data

How the results depend on the processing

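No member passed the adjusted threshold under any of the 17 alternatives, and Gfpt2 had a value only without the filter. Akr1b3 kept an unadjusted limma p under 0.05 in 10 of 11 other settings and in 5 of 6 fits without a library, whereas Sord kept it in 6 and 2. The count of genes called over the whole table was less stable: 8 as reported, 1 without a filter, 5 with quantile normalization, 3 without the trend, 129 with library weights, and 1 to 66 when each library was left out (1 without diabetic replicate 3, 66 without diabetic replicate 1). Correlations of deviations were -0.198, 0.056 and -0.0862 for libraries with the same replicate number and -0.23 to 0.29 for the other combinations. These correlations cannot decide whether the numbers pair the samples. A replicate block gave 3 genes called and no member. Genes past an unadjusted p of 0.05 and a 1.5-fold change numbered 302, with 584 at a pseudocount of 0.1, 497 in TPM and 258 to 469 without a library. The causes were not tested.

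The median log2 fold change of the polyol genes was -0.40 to -0.21 without a library, the last without diabetic replicate 3. Directions turned for values near 0. Gnpnat1 was 0.026 in TPM, 0.034 after quantile normalization, 0.037 after median-of-ratios scaling and 0.039 with library weights, and -0.075 to 0.052 without a library. Without a library, Pgm3 ranged from -0.075 to 0.11, Uap1 from -0.022 to 0.18, Nfat5 from -0.33 to 0.060 and Ager from -0.061 to 0.14. The differences within a library ranged from -0.11 to 0.072 for Akr1b8 less Akr1b3, from -0.20 to 0.088 for Sord less Akr1b3 and from -0.22 to 0.15 for Ogt less Mgea5. Unknown depth limits the low genes most, Gfpt2, Slc2a5 and Has2 among them.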
